A study of Homo sapiens with 3 samples.

Results

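Desmosomes are the junctions that anchor the keratin filaments of neighbouring epithelial cells to each other. Desmogleins and desmocollins, which are cadherins, bind across the gap between the cells. Their tails are held by plakoglobin (JUP) and the plakophilins, and desmoplakin (DSP) links this plaque to keratin. PERP is a membrane protein of the junction and a known target of p53 and p63. The 10 genes described here are DSC2, DSC3, DSG2, DSG3, DSP, JUP, PKP1, PKP2, PKP3 and PERP. They were chosen by name, and peaks of the transcription factor ETS1 were assigned to them by position alone.

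ETS1 binding was measured by ChIP-Seq in SCC25, an established line from a tongue squamous cell carcinoma that the study classes as mesenchymal. ETS1 belongs to the ETS family of transcription factors, which bind DNA around a GGAA core. Of the 3 samples, 2 were precipitated using C20 and 1 using 501A, which are antibodies against ETS1. The labels give no treatment, second condition or other cell line. The study describes the samples as independent experiments. The peaks that the IDR procedure found reproducible over the 3 samples were deposited as 1 list of 26970 positions on hg19, without a score, a read count or a value per sample. The values below are therefore positions, widths and counts of peaks with no spread between replicates, and the antibodies could not be set against each other. Of the 26970 peaks, 66 had their midpoint in a desmosome gene or within 100 kb of one, with the chromosome 18 cadherin cluster taken as a single region. Of these 66, 22 lay within 500 bp of a transcription start site (TSS) of a desmosome gene or inside its body (33.3%, 95% Wilson confidence interval 23.2 to 45.3%, which covers counting error only).

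An ETS1 peak covered a TSS of 9 of the 10 genes, namely DSC2, DSC3, DSG2, DSP, JUP, PKP1, PKP2, PKP3 and PERP. In each of the 9 the canonical TSS was itself under the peak. The exception was DSG3, the desmoglein of basal keratinocytes that is the pemphigus vulgaris antigen, whose nearest peak had its midpoint 17.9 kb upstream. The background was high, since a TSS was covered at 56.7% of the 19863 protein-coding genes. That share counts any annotated TSS of a gene, and coverage of the canonical TSS alone was not counted over all genes. By the midpoint, which the rule uses, 8 of the 10 genes had a peak within 500 bp of an annotated TSS against 53.8% of protein-coding genes. With the canonical TSS alone the count was 5 of 10 against 46.8%, since the peaks of DSP, JUP and PKP3 were centred more than 500 bp from it. DSC2 was covered but not counted by its midpoint. Its peak of 1845 bp covered the TSS, but the midpoint lay 692 bp inside the gene and 157 bp from the TSS of the noncoding RNA gene DSCAS. Counting covered TSSs was chosen after the positions had been seen.

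The number of peaks inside the gene body ranged from 0 to 9. PKP1 held 9 peaks, JUP 3 and DSP 2. DSC2, DSC3, DSG2, PKP3 and PERP held 1 each, and DSG3 and PKP2 held none. Thus 8 of the 10 had a peak in the body, against 54.1% of protein-coding genes, and the median over the members was 1 peak, the same as the median over all protein-coding genes. For DSC2, DSC3, JUP, PKP1, PKP3 and DSP the count includes the peak over the canonical TSS. All 10 genes had a peak within 100 kb, as 88.2% of protein-coding genes did. Under the default association rule of the GREAT tool all 10 had a peak in their domain against 74.9%. The median was 2 peaks per domain for the desmosome genes and 1 for all genes, and the members ranged from 1 peak (DSC2, DSG3 and PKP2) to 13 (PKP1).

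**Figure D1:**
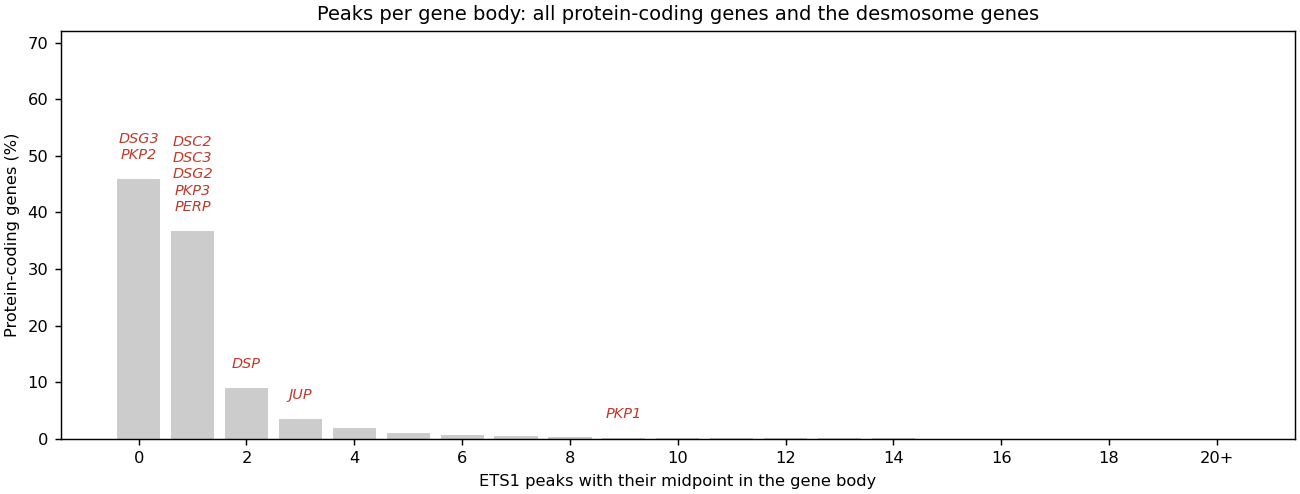
Grey bars give the share of the 19863 protein-coding genes (vertical axis, %) with each number of ETS1 peak midpoints in the gene body (horizontal axis, 20 or more pooled), and red names mark the desmosome genes at their own count. PKP1 stands alone at 9 peaks, while 7 of the 10 genes lie at 0 or 1.

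The desmosomal cadherins lie together on chromosome 18 from 28569331 to 29128971 (hg19). The order from the low coordinate is DSC3, DSC2, DSC1, DSG1, DSG4, DSG3 and DSG2. The desmocollins are on the minus strand and the desmogleins on the plus strand. The 760 kb of cluster and flanks held 7 peaks, or 9.21 per Mb, close to the 9.43 per Mb of the nuclear genome outside sequence gaps. Of the 7, 3 covered a TSS, at DSC3 (28621367 to 28623286), DSC2 (28680770 to 28682614) and DSG2 (29077451 to 29078740). The DSG2 peak was the most centred on its gene start, with the midpoint 45 bp from the canonical TSS, whereas that at DSC3 lay 382 bp inside the gene. These 3 peaks were 1290 to 1920 bp wide. The other 4 were 276 to 541 bp wide, below the lower quartile of all nuclear peaks (609 bp), and lay downstream of DSC3, between DSC1 and DSG1, upstream of DSG3 and in intron 1 of DSG2.

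The genes in the middle of the cluster carried no peak. DSC1, DSG1 and DSG4, the forms of the upper epidermis and the hair, had none in the body or over a TSS (0 of 3). Among all protein-coding genes a TSS was covered at 56.7%, and at 22.7% of those whose promoter was not CpG-rich, as defined below. The longest stretch without a peak in the cluster ran for 222 kb, from 28787275 to 29009624, and contains DSG1 and DSG4 whole. How common stretches of this length are elsewhere in the genome was not counted. DSG3 lies entirely in a further stretch of 67.6 kb between the peak upstream of it and that at the DSG2 start. ETS1 peaks over a TSS were therefore found at both ends of the cluster and at no gene from DSC1 to DSG3. A peak that failed the IDR threshold is not in the list, so absence here means absence from the consensus and not absence of ETS1.

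**Figure D2:**
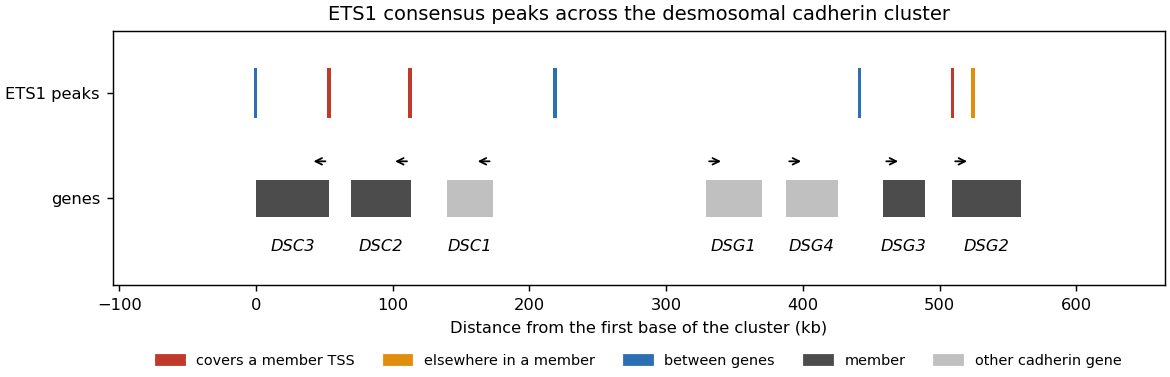
Boxes on the lower row are the 7 cadherin genes (dark, members of the desmosome set; light, DSC1, DSG1 and DSG4) with arrows for the direction of transcription, and bars on the upper row are ETS1 peaks, drawn at least 2.5 kb wide to be visible. The horizontal axis is the distance from the first base of the cluster in kb. Red bars stand at the starts of DSC3, DSC2 and DSG2, and a gap of 222 kb spans DSG1 and DSG4.

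Because the narrow peaks of the cluster are short enough to be read whole, 3 of them are shown on the plus strand of hg19. They are the nearest peak to DSG3 (chr18:29009624-29009899), the peak in intron 1 of DSG2 (chr18:29092477-29092772) and the peak downstream of DSC3 (chr18:28567462-28567752). Capitals mark ETS strings and the AP-1 string on either strand. The ETS strings searched were CCGGAA, in which CC precedes the core, then CAGGAA, in which CA precedes it, and lastly GGAAGT, in which GT follows it. The AP-1 string was TGANTCA. The first peak contains CAGGAA 3 times and no AP-1 string. Each of the other two contains 1 ETS string and 1 AP-1 string.
DSG3 upstream peak: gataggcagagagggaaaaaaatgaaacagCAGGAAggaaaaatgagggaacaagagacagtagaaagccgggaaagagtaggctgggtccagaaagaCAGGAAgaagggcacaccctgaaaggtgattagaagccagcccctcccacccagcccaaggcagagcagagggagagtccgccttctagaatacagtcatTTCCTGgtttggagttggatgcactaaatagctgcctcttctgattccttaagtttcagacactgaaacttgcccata
DSG2 intron 1 peak: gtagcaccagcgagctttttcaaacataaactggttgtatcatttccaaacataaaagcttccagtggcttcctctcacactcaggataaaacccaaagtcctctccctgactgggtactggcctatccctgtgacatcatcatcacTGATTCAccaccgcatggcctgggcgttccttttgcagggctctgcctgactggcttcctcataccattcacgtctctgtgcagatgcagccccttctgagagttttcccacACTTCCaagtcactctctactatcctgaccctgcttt
DSC3 downstream peak: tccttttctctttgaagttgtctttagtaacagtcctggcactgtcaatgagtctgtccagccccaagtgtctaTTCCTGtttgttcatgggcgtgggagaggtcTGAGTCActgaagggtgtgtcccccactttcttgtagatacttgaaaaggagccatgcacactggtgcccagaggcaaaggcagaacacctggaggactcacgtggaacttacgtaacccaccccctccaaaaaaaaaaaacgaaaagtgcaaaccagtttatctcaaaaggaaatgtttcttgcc

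The plakophilins, armadillo proteins that cluster the junction, showed 3 different arrangements. PKP1, the plakophilin of stratified epithelium (chromosome 1, 201252580 to 201302121, plus strand), had 15 peaks within 100 kb, the most of any member. Its 9 peaks within the body spanned 29.4 kb, from 201252071 to 201281446, and covered 37.6% of that span. Of these, 3 were in intron 1, including the peak over the TSS, and 6 were in intron 2. The last 20.7 kb of the gene had none. Gaps between neighbouring peaks were 212 to 5114 bp, and joining peaks less than 1 kb apart left 6. Of the 19863 protein-coding genes, 122 (0.614%) had at least 9 peaks in the body. Longer genes can hold more, but among the 2138 genes whose length was within 20% of that of PKP1, 99.9% had fewer. Per length PKP1 had 1.82 peaks per 10 kb of body. Peaks at 201243516 to 201245308 and 201227931 to 201229742 were centred 8.22 and 23.8 kb upstream of the TSS.

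PKP2, the plakophilin of heart and simple epithelia (chromosome 12, 32943679 to 33049732, minus strand), is the longest member at 106 kb and had no midpoint in its body. Its 1 peak within 100 kb that touched the gene (33049215 to 33050373) covered the TSS, with the midpoint 83 bp upstream. The window held 2 other peaks, in DNM1L and at the start of YARS2. PKP3, found in most epithelia (chromosome 11, 392614 to 404908, plus strand), is the shortest member at 12.3 kb and had the widest peak at a member TSS. That peak (391490 to 395833) was 4344 bp wide, wider than or as wide as 99.5% of nuclear peaks, and its midpoint was 548 bp upstream of the canonical TSS and 198 bp from another PKP3 TSS. The PKP3 window held 13 peaks, but 12 lay outside the gene. Among those, 6 were within 500 bp of a TSS of IFITM1, SIGIRR (2 peaks), ANO9 or PTDSS2 (2 peaks).

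The plaque proteins DSP and JUP were intermediate. DSP, the plakin that anchors keratin (chromosome 6, 7541571 to 7586947, plus strand), had a peak of 2244 bp over its start (7541399 to 7543642) and a second of 664 bp in intron 1 (7553808 to 7554471), 12.2 kb from the TSS. Its window held 11 peaks, of which 5 lay upstream, between 36.2 and 95.5 kb from the TSS, and 1 lay at the start of SNRNP48. JUP, which also binds classical cadherins (chromosome 17, 39910856 to 39943183, minus strand), had 3 peaks in its body. All 3 lay in intron 1 of the canonical transcript, and JUP has 11 annotated TSSs. The peak at 39940200 to 39943210 (3011 bp) covered the canonical TSS near its edge, with the midpoint 1258 bp inside the gene and 298 bp from another JUP TSS. A second peak of 2560 bp (39927975 to 39930534) also covered a JUP TSS, 1 that lies further inside the gene. The JUP window held 12 peaks, with EIF1 and P3H4 starts among them. Upstream of the JUP start, 3 peaks with no TSS within 500 bp lay 2.61, 6.78 and 14.7 kb away.

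PERP (chromosome 6, 138409642 to 138428556, minus strand) had a peak of 1644 bp over its single annotated TSS (138428032 to 138429675), with the midpoint 297 bp upstream. A peak of 281 bp lay in intron 1, and its width was in the lowest 0.760% of nuclear peaks. The window held 5 peaks in all. Downstream of the gene, 2 peaks of 506 and 383 bp stood 72.2 and 71.1 kb from the TSS, and 1 peak lay at the start of ARFGEF3.

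**Figure D3:**
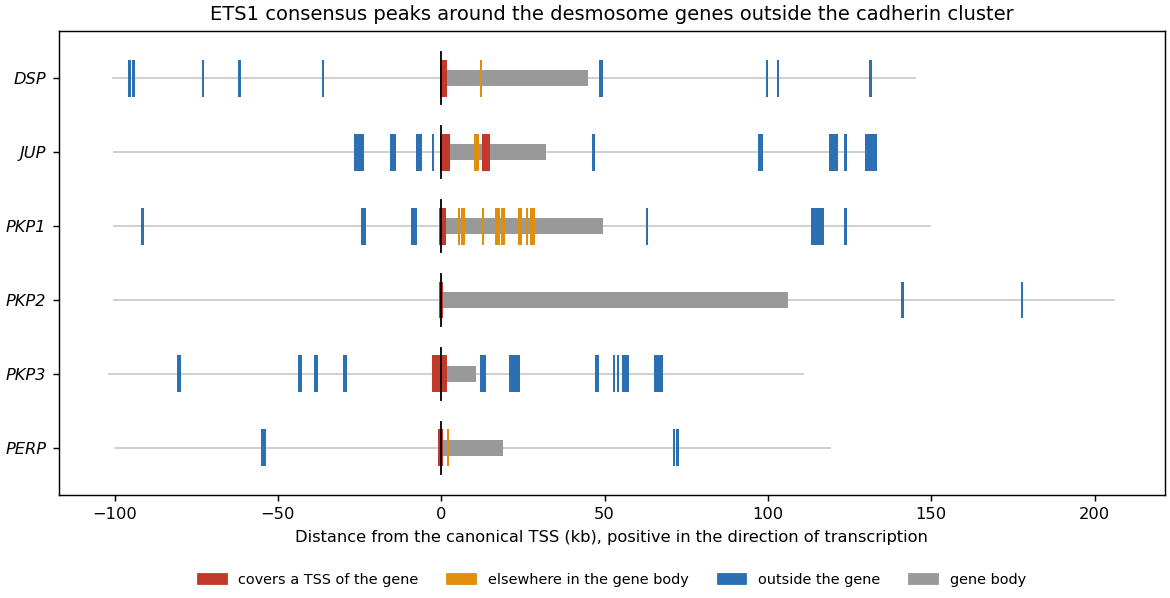
Each row is a desmosome gene outside the cadherin cluster with its flanks of 100 kb (thin line), gene body (grey box), canonical TSS (black tick) and ETS1 peaks, drawn at least 0.7 kb wide. The horizontal axis is the distance from the canonical TSS in kb, positive in the direction of transcription. Peaks covering a TSS (red) stand at all 6 genes, the series inside a gene body (orange) is longest in PKP1, and PKP2 has none inside.

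Across the 7 regions, peaks were denser than in the genome as a whole, at 29.7 per Mb over 2.22 Mb against 9.43 per Mb. This rested on DSP, JUP, PKP1 and PKP3, with 44.8 to 61.2 peaks per Mb, and PERP with 22.8, whereas PKP2 and the cadherin cluster had 9.80 and 9.21. Over the same kind of window, the body and 100 kb on each side, the median of all protein-coding genes was 16.3 per Mb (quartiles 6.06 and 33.7). The 29.7, which pools the 7 regions, lay between the median and the upper quartile, as did PERP. DSP, JUP, PKP1 and PKP3 lay above the upper quartile, and PKP2 and the cluster between the lower quartile and the median. The median number within 100 kb of a protein-coding gene was 4 (quartiles 2 and 8), and the median over the 10 members was also 4, with the 4 cadherins at 3 each and their flanks overlapping. Of the 66 peaks, 12 (18.2%) were within 500 bp of TSSs of other genes only, and 32 (48.5%) had a member as the nearest protein-coding TSS. In all 20 of the 66 (30.3%, confidence interval 20.6 to 42.2%) were within 500 bp of any TSS, against 43.3% of all nuclear peaks.

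The members differed in the base composition of their promoters. Within 500 bp of the canonical TSS, a promoter was called CpG-rich where GC content was at least 50% and the observed to expected ratio of CpG at least 0.6, limits set after the peaks had been seen. DSC2, DSC3, DSG2, DSP, JUP, PKP1, PKP2 and PERP were CpG-rich, and a peak covered a TSS of 8 of these 8. DSG3, with 36.4% GC and a ratio of 0.363, and PKP3, with 69.8% GC and a ratio of 0.460, were not, and only PKP3 was covered. The 3 remaining cadherin genes of the cluster were also CpG-poor (ratios 0.166 for DSC1, 0.187 for DSG1 and 0.213 for DSG4) and uncovered. Among all protein-coding genes, a TSS was covered for 75.0% of the CpG-rich and 22.7% of the other promoters. The comparison genes named further below did not divide this way. A TSS was covered at 7 of the 7 genes with a CpG-rich promoter and also at 8 of the 10 others. Here and for all protein-coding genes, coverage was counted at any TSS of a gene, whereas base composition was measured at the canonical TSS alone. For CTNND1, which is among those 8, the canonical TSS was not under a peak. The part of base composition in the members' result was not tested.

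**Figure D4:**
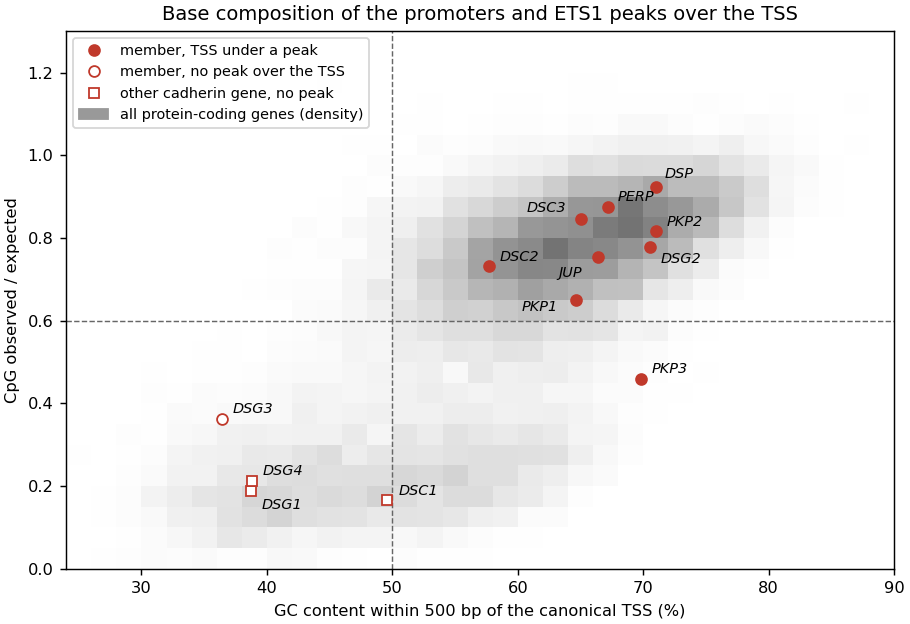
Each symbol is a cadherin-cluster or other desmosome gene, placed by GC content (horizontal axis, %) and CpG observed to expected ratio (vertical axis) within 500 bp of the canonical TSS. Filled symbols have the canonical TSS under an ETS1 peak, grey shading is the density of all protein-coding genes, and dashed lines are the limits of 50% and 0.6. The open symbols, DSG3, DSC1, DSG1 and DSG4, lie at low ratios, and PKP3 is the 1 filled symbol below 0.6.

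The start regions of PERP, PKP1, DSG2 and DSG3 are shown, with 250 bases before and 50 bases from the canonical TSS on the coding strand of hg19. These regions differ in CpG count and in the ETS and AP-1 strings that they hold. They are chr6:138428507-138428806 (minus), chr1:201252384-201252683 (plus), chr18:29077890-29078189 (plus) and chr18:29027454-29027753 (plus). Capitals again mark the ETS and AP-1 strings. Each window held 43 CpG dinucleotides at PERP, 19 at PKP1, 36 at DSG2 and 6 at DSG3. An ETS string was present at PERP, PKP1 and DSG3 and at none of the other 7 members, against 51.8% of all protein-coding windows of this length. DSG3 thus held an ETS string in this start window without a peak, and DSG2 had a peak without an ETS string in the start window. The windows of 600 bp centred on the start peaks differ from these start windows. There, the DSG2 peak held CAGGAA 1 time, and the PKP1 peak held none of the ETS strings. In PERP the AP-1 string begins at position -101 from the TSS and the ETS string at -94, so that the 7 bases of the one are directly followed by the 6 of the other. This arrangement, singled out after it had been seen, was present at 3 protein-coding starts in all (0.0151%), those of PERP, MED17 and PRNP. A TSS of each was under a peak, as was a TSS of 56.7% of all protein-coding genes. Of the 26961 nuclear peaks, 10 (0.0371%) held the arrangement in a window of 600 bp.
PERP start: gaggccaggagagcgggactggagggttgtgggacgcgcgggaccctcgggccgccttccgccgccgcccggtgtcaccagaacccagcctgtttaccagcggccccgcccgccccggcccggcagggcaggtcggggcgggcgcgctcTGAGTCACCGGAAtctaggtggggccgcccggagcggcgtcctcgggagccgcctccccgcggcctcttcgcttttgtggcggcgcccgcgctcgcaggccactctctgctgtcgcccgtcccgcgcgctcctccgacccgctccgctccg
PKP1 start: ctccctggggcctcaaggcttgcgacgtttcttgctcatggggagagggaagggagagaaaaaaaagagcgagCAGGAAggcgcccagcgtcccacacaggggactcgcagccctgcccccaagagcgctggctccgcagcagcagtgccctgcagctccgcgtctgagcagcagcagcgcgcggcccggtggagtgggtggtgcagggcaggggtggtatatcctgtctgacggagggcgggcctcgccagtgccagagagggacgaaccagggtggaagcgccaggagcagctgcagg
DSG2 start: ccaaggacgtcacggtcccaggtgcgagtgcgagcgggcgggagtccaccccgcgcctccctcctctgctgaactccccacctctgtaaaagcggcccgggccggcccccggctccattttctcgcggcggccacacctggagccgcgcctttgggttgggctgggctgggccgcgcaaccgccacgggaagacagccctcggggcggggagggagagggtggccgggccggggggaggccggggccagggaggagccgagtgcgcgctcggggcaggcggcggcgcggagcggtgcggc
DSG3 start: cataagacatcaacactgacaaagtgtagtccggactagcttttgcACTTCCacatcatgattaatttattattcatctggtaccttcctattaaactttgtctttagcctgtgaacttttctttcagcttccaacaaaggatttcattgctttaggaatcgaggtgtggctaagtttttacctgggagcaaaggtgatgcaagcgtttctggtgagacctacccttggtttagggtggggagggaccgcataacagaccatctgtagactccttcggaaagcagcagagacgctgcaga

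Short motifs were counted in windows of 600 bp centred on the 22 peaks at or inside the members, of which 9 are those of PKP1. At least 1 of the 3 ETS strings was present in 15 (68.2%, confidence interval 47.3 to 83.6%) against 80.3% of all 26961 nuclear peaks. The form with CC before the core, CCGGAA, was present in 1 of the 22, the PERP start (4.55%, confidence interval 0.807 to 21.8%), against 26.0% of all peaks. Over the 9 peaks within 500 bp of any TSS it was 1 of 9 against 40.3%, and over the 13 others it was 0 of 13 against 15.1%. CAGGAA was present in 14 of the 22 (63.6%) against 58.0%, and GGAAGT in 6 (27.3%) against 41.2%. CAGGAA was thus the commonest of the 3 among the members, as among all peaks. These strings can overlap each other.

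Of the partner motifs, AP-1 was present in 7 of 22 (31.8%) against 30.9%. By class, it was present in 3 of the 9 peaks near a TSS (interval 12.1 to 64.6%) against 12.0%. In the 13 others it was present in 4 (interval 12.7 to 57.6%) against 45.4%. The p53-family decamer, the unit of which a full site has a pair, was present in 7 of 22 (31.8%, confidence interval 16.4 to 52.7%) against 16.9%, and not in the PERP start. With this window PKP1 carried the share over all 22, with the decamer in 5 of its 9 peaks, and in the other genes it was present in 2 of 13 (15.4%). Near a TSS the decamer was present in 3 of 9 (interval 12.1 to 64.6%) against 11.3%, in the start peaks of DSG2, JUP and PKP1. In the 13 others it was present in 4 against 21.1%. The Grainyhead-like string AACNNGTT, the site of factors of epithelial differentiation, was present in 2 of 22 against 6.30%. The TEAD string GGAATG, which contains the ETS core and can overlap the ETS strings, was present in 3 against 29.6%, and the RUNX string TGTGGT in 5 against 29.9%. With 22 peaks the intervals are wide. They also treat the peaks as independent, although 9 of the 22 are from PKP1, and they are not a test. Of the 8 strings, over all 22 peaks, only the interval of CCGGAA left the share of all peaks outside it. This held for windows of 600 bp alone. With 200 bp CCGGAA was present in 0 of the 22 (interval up to 14.9%) against 11.9%, and over whole peaks in 4 (18.2%, interval 7.31 to 38.5%) against 37.4%, both inside the interval. Without the PKP1 peaks CCGGAA was present in 1 of 13 (7.69%, interval 1.37 to 33.3%), an interval that also includes the 26.0%. A match to a string is not evidence of a bound site, and the midpoint need not be the summit.

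**Figure D5:**
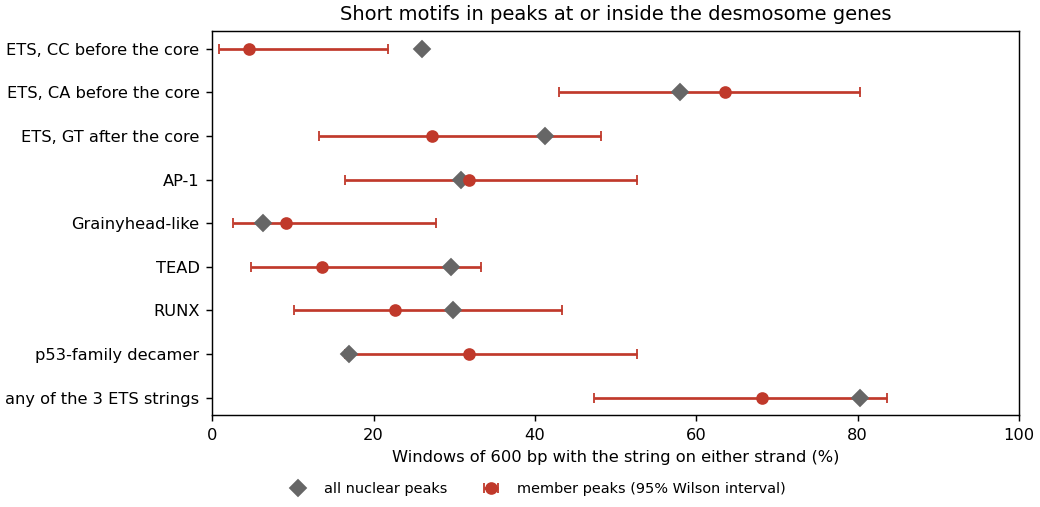
Red points give the share of the 22 member peaks (horizontal axis, %) whose 600 bp window holds each string on either strand, with 95% Wilson intervals, and grey diamonds give the share of all 26961 nuclear peaks. The red point for the ETS string with CC before the core (4.55%) lies below its diamond (26.0%), for this window and with PKP1 included, and the AP-1 points nearly coincide.

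In width, the 9 member peaks within 500 bp of any TSS had a median of 1920 bp (quartiles 1640 and 2240 bp) against 1260 bp (quartiles 912 and 1720 bp) for the 11685 such peaks overall. The 13 others, all inside gene bodies and 8 of them in PKP1, had a median of 1180 bp against 740 bp. The GC content of both classes was like that of all peaks, with medians of 67.0% against 65.8% near a TSS and 53.5% against 53.3% elsewhere.

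Genes that work beside the desmosome were counted in the same way. A TSS was covered at 5 of 5 genes of the adherens junction core (CDH1, CDH3, CTNNA1, CTNNB1 and CTNND1). The canonical TSS of CTNND1 was not under a peak. These genes have 10 to 48 annotated TSSs, against 1 to 13 for the members. Their median was 5 peaks in the body, against 1 for all protein-coding genes. CDH3, P-cadherin, had 8, CDH1, E-cadherin, had 6, CTNNA1 5, CTNND1 4 and CTNNB1 1. Their bodies are 65.4 to 324 kb long, against 12.3 to 106 kb for the members. The next list held the plakins PPL, EVPL and PLEC, the armadillo relative PKP4, and CDSN, corneodesmosin of the cornified layer. Of these 5 genes, 4 had a covered TSS and CDSN had not. Of 7 keratins that desmoplakin can anchor, 6 had a covered TSS (KRT5, KRT6A, KRT16, KRT17, KRT8 and KRT18). The nearest peak to KRT14 was centred 1.65 kb upstream. Each list is to be read against the 56.7% of all protein-coding genes. The other cadherins of the cluster, at 0 of 3, were the only one of these lists without a covered TSS.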

How the data were processed

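ETS1 ChIP-Seq in SCC25 cells comprised 3 samples (C20 antibody, 2; 501A antibody, 1). Per the labels and methods, the authors mapped reads to hg19 with Bowtie 1.1.1 keeping reads with a single locus, pooled them with SAMtools 1.3, used MACS2 with the merged input as control to call peaks, and kept those passing IDR. The deposited file gives chromosome, start and end only. It pools the 3 samples, and depth per sample is unknown from it.

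Positions were converted to 1-based, and a midpoint stood for each peak. Of the 26970 peaks, 9 mitochondrial ones were left out. Genes, TSSs and sequence came from GENCODE release 44 mapped to GRCh37, whose nuclear sequence is that of hg19. Of 20162 protein-coding genes, 19863 had a canonical transcript with sequence. The GREAT domain was coded from its description (5 kb upstream, 1 kb downstream, extension up to 1 Mb). Shares carry 95% Wilson intervals. No test was run, since the list holds no replicates. The members and gene lists were chosen with earlier results of these data known. Genes named are the members, the rest of the cluster, genes with a TSS within 500 bp of a peak in a region, 3 comparison lists, and the exceptions stated. The nearest, widest, TSS and gene-body peaks were named, with some others in the regions. The counting code recovered 200 of 200 planted genes in simulated peaks. Their midpoints were placed inside the 500 bp limit, so this checks the code only and not peaks centred further away. Python 3.11.15, numpy 2.4.6, scipy 1.17.1, pysam 0.24.0 and matplotlib 3.10.9 were used.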

Additional observations from a re-analysis of the deposited data

How the results depend on the processing

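Of 47 alternative values over 14 results, 25 stayed within the limits set for each result and 22 moved, and 15 of the 22 were shares of a single motif, under another window or without PKP1 (an alternative chosen after seeing the data, as was counting covered TSSs). With gene bodies alone 19 peaks were counted in place of 66, and with the first 13485 lines of the list 37, at a density of 16.6 per Mb where the genome then had 4.71. With the canonical TSS alone, 5 of the 10 genes had a peak midpoint within 500 bp, against 46.8% of protein-coding genes, as the peaks of DSP, JUP and PKP3 were centred 616, 1258 and 548 bp from it. With the same 13485 lines, 4 had a peak in the body against 36.1%. An ETS string was present in 31.8% of the 22 peaks with 200 bp windows (45.9% of all peaks) and in 90.9% over whole peaks (89.8%). Over whole peaks the p53-family decamer was present in 59.1% (interval 38.7 to 76.7%) against 27.1%, and in 7 of the 9 near a TSS (45.3 to 93.7%) against 26.0%. The Grainyhead-like string was then present in 31.8% (16.4 to 52.7%) against 10.9%. The members' peaks were also wider than all peaks. No paired analysis was possible because the list holds no value per sample, and for the same reason no sample could be left out. Without scores, a weak peak and a strong one count alike.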

Other observations

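The regions of the desmosome genes also hold wide peaks whose nearest protein-coding TSS is that of another gene. The widest peak of the PKP1 region (4093 bp, 201365688 to 201369780 on chromosome 1) lay 115 kb from the PKP1 start and had its midpoint 703 bp from a TSS of LAD1, which encodes ladinin. The widest peak of the JUP region (3886 bp, 39809445 to 39813330 on chromosome 17) was 132 kb from the JUP start, and its nearest protein-coding TSS was that of KRT17, 30293 bp away, with a noncoding TSS nearer at 10431 bp. Which gene either peak acts on was not tested. In the DSP region the widest peak was the 2244 bp peak over the DSP start itself, and in the PKP3 region the 4344 bp peak over the PKP3 start.

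The order of the deposited list is not explained by its columns. The PKP2 start peak stood at line 492 and the peak 23.8 kb upstream of PKP1 at line 567, whereas the second peak in JUP intron 1 (39931271 to 39932868) stood at line 26883 of 26970 although it was 1598 bp wide. The start peak of DSC2 was at line 22023 and that of JUP at line 13500, so that these TSS peaks were not among the first 13485 lines.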
